A study of Homo sapiens with 12 samples.

Results

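The collagen genes were taken as every row of the deposited gene table whose symbol has the form COL, a number, A and a number, which gave 44 genes of 26475. Collagens are the main structural proteins of the extracellular matrix, and each is built from chains that wind around each other into a stiff helix. Fibrillar types (I, II, III, V, XI, XXIV, XXVII) make load-bearing fibres, type IV makes the sheet of basement membranes, type VI makes beaded filaments, and fibril-associated types decorate fibre surfaces, while smaller classes are short-chain networks, anchoring fibrils, transmembrane collagens and multiplexins. Chains are hydroxylated and folded in the endoplasmic reticulum, trimmed and cross-linked outside the cell, and cut by matrix metalloproteinases. Melanoma cells contact collagen in the dermis and can also make it.

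RNA was measured in A375, an established human melanoma line, so all 12 libraries share 1 genetic background. Cells received XL413 (1 µM), an inhibitor of the replication kinase CDC7, or GSK343 (1 µM), an inhibitor of the Polycomb histone methyltransferase EZH2, or GSK343 and XL413 together (1 µM each), or DMSO, the solvent control, in each case for 24 h. Each of the 4 groups had 3 libraries of polyadenylated RNA, called biological replicates by the submitters, and p-values measure the spread between such libraries. Because whole cultures were lysed, fewer cells that express a gene and less RNA per cell cannot be told apart.

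Libraries held 31553205 to 39079931 expected counts, which are read counts per gene estimated by RSEM, and 18175 to 18488 genes had a count. Levels are given as CPM, counts scaled to the normalised library size. Baseline levels of different collagens are compared as CPM per kilobase of the longest annotated transcript. Marker sums, the cut of 10 CPM and orders by mean CPM are not corrected for length. Of the melanoma markers looked up, 7 of 10 passed the count filter, and the pigment-cell genes MLANA, TYR and DCT did not. All 10 together summed to 784.5 to 808.6 CPM in GSK343+XL413 libraries and 935.4 to 979.9 CPM in DMSO libraries. Most of the sum was AXL and SOX10. AXL averaged 341.7 CPM with GSK343+XL413 and 477.6 CPM with DMSO, and SOX10 313.5 and 346.7 CPM. S100B (25.2 and 22.9 CPM) and S100A1 (25.5 and 21.7 CPM) had higher means with GSK343+XL413. The 8 fibroblast markers that are not collagens summed to 34.58 to 39.37 CPM in GSK343+XL413 libraries, 34.82 to 38.44 CPM in XL413 libraries, 34.43 to 38.23 CPM in GSK343 libraries and 31.95 to 38.64 CPM in DMSO libraries, and TCF21 did not pass the filter. The 2 leukocyte markers tested summed to 6.819 to 7.782 CPM with GSK343+XL413 and 5.48 to 6.208 CPM with DMSO, nearly all of it LYZ, and the part of such shifts in the collagen results was not tested. The leukocyte genes PTPRC and CD3E also failed it. Of 6 epithelial markers 4 passed, and EPCAM and CDH1 did not. The epithelial sum was 599.5 to 662.2 CPM with GSK343+XL413 and 651.7 to 681.1 CPM with DMSO, most of it the keratin KRT18. All 5 endothelial markers passed, with sums of 7.782 to 9.827 CPM with GSK343+XL413 and 8.061 to 8.883 CPM with DMSO. The library GSK343+XL413 replicate 2 stood apart from its group in a way that went with transcript length, described with the long collagens, and results that turn on it are given with and without it.

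Which collagens A375 cells expressed was read from the DMSO libraries. Basement membrane and fibril-associated collagens led, and most of their signal came from few genes. Per kilobase, the basement membrane class summed to 109.1 ± 1.83 CPM per kilobase (SD, n = 3), or 30.9% of the collagen sum. The fibril-associated class made up 26.6%, with 93.97 ± 0.857 CPM per kilobase, the fibrillar class 21.4%, with 75.46 ± 5.52, and the beaded filaments 16.7%, with 58.9 ± 6.66. The other classes were minor, with 2.52% for the transmembrane collagens, 0.972% for the multiplexins, 0.714% for the short-chain class and 0.226% for the anchoring fibril gene COL7A1. In all, collagen counts were 0.19% of the counts in DMSO cells.

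**Figure D1:**
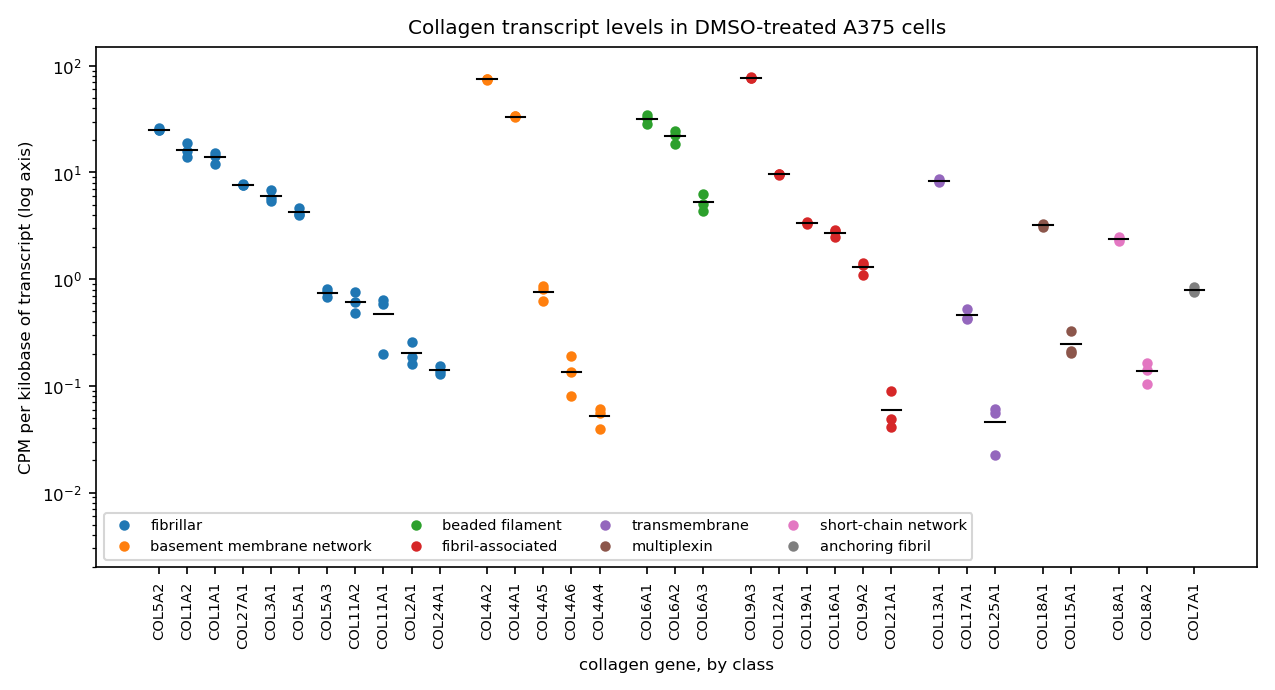
Level of the 33 tested collagen genes in DMSO libraries, as CPM per kilobase on a log axis, grouped by class; each point is 1 library and each line the mean of 3. COL9A3 and COL4A2 stand highest, at 76.9 and 74.7 CPM per kilobase, and COL25A1 lowest, at 0.0461.

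COL9A3, a chain of type IX collagen that coats cartilage fibrils, had the highest level, with 76.02 to 77.85 CPM per kilobase in the 3 DMSO libraries. COL4A2, with COL4A1 the ubiquitous chain pair of basement membranes, had 73.11 to 75.65. The order of these 2 genes depends on the length used: divided by the median length of each gene's coding transcripts, COL4A2 had 94.1 and COL9A3 77.05 CPM per kilobase. COL4A1 had 32.85 to 33.79 CPM per kilobase and overlapped COL6A1, a chain of the beaded filaments, at 28.71 to 34.24. COL5A2, of the type V collagen that starts fibrils, followed at 24.9 to 25.86, above COL6A2 at 18.65 to 24.4. The chains of type I collagen, the bulk collagen of skin and bone, came next and overlapped each other, with 14.03 to 18.95 for COL1A2 and 12.11 to 15.38 for COL1A1. COL12A1, which bridges fibrils in dense tissue, averaged 9.61 CPM per kilobase and COL13A1, a transmembrane collagen of adhesion sites, 8.37. Class by class, the highest members were COL5A2, COL4A2, COL6A1, COL9A3, COL13A1, COL18A1 (3.19 CPM per kilobase, the precursor of endostatin), COL8A1 (2.38) and COL7A1 (0.797). The order of the classes was the same with the median transcript length.

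Partner chains of 1 protein were not equally abundant. COL9A3 was far above COL9A2, which had 1.1 to 1.43 CPM per kilobase in DMSO libraries, and COL9A1 did not pass the filter. Over the 12 libraries the ratio of COL9A2 to COL9A3 per kilobase was 0.0144 to 0.0216. The ratio of COL4A1 to COL4A2 was 0.433 to 0.499 and that of COL1A1 to COL1A2 was 0.76 to 0.929, although both proteins hold more α1 than α2 chains. COL6A3, the long chain of type VI, was lower than COL6A1, with a COL6A1 to COL6A3 ratio of 5.44 to 7.35. These ratios rest on the longest transcript of each gene and on how RSEM divided reads.

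The 11 collagens that did not pass the count filter had 0 to 12 counts in any library. They were COL4A3, COL6A5, COL6A6, COL9A1, COL10A1, COL14A1, COL20A1, COL22A1, COL23A1, COL26A1 and COL28A1. COL6A5 had 0 counts in all 3 DMSO libraries. The other 33 passed and were tested among 15443 genes.

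The type IV genes lie head to head in pairs, and a piece of the interval between the starts is shown for each pair because the partner chains are read outward from it. The starts in RefSeq are 126 bases apart for COL4A1 and COL4A2 (chromosome 13), 418 for COL4A3 and COL4A4 (chromosome 2) and 379 for COL4A5 and COL4A6 (chromosome X). The pieces below, which hold neither start, from the RefSeq promoter table on GRCh38.p14, plus strand, 5′ to 3′, are chr13:110307167-110307196, chr2:227164454-227164564 and chrX:108439588-108439698. Capitals mark CCAAT boxes (CCAAT, or ATTGG on the other strand) and GC boxes (GGGCGG, or CCGCCC on the other strand).
COL4A1/COL4A2: gggccgagctccCCAATttgttggcgctgc
COL4A3/COL4A4: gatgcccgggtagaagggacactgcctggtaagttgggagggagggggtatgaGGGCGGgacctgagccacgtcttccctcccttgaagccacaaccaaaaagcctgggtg
COL4A5/COL4A6: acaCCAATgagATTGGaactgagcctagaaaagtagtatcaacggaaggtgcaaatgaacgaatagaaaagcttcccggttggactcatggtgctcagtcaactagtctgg
A CCAAT box stands in 34.6% and a GC box in 45.0% of 35116 promoter windows of 300 bases, so a match only describes the letters. Of the 33 tested collagens, 25 had a window in the table, 18 of these genes with a GC box and 9 with a CCAAT box in at least 1 window. The levels of the pairs differed widely: COL4A1 and COL4A2 stood at 33.39 and 74.74 CPM per kilobase in DMSO cells, COL4A5 and COL4A6 at 0.766 and 0.135, and COL4A4 at 0.0519, with COL4A3 not tested. In GENCODE 29 on GRCh38, COL4A1 spans chr13:110148963-110307233 and COL4A2 chr13:110305812-110513209 on opposite strands, so they overlap, and the strand setting of the counting is not given in the sources used here.

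What CDC7 inhibition did to collagen transcripts was read from XL413 against DMSO. Of the 33 tested collagens 0 passed an adjusted p of 0.05 in edgeR's quasi-likelihood test with Benjamini-Hochberg adjustment over all genes, where 0.427% of all tested genes passed. DESeq2 and limma-voom also called 0 collagens. At an unadjusted p under 0.05 there were 4 collagens, all higher with XL413, and 0 lower, against 6.53% and 7.16% of all genes. The estimates leaned upward, with 29 of 33 above 0 and a median log2 fold change of 0.0815, beside -0.00681 over all tested genes. The groups did not overlap for 7 collagens that were higher and 1 that was lower, against 11.9% and 16.2% of all genes.

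The smallest p of this comparison was that of COL16A1, a fibril-associated collagen, which had 18.7, 18.2 and 18 CPM in XL413 libraries and 16.5, 16.2 and 14.2 CPM in DMSO libraries. Its groups did not overlap, and the log2 fold change was 0.23 ± 0.065 (SE), with an adjusted p of 0.147 in edgeR. COL13A1 had 30.6, 30.8 and 29.5 CPM with XL413 and 27.6, 26.5 and 26 CPM with DMSO, again without overlap. Its log2 fold change was 0.18 ± 0.056, with an edgeR adjusted p of 0.168. COL27A1, a fibrillar collagen of cartilage, had 71, 69.2 and 71.8 CPM with XL413 and 60.8, 59.1 and 59 CPM with DMSO. Every XL413 library was above every DMSO library, and the log2 fold change was 0.25 ± 0.086, at an edgeR adjusted p of 0.234. This SE is set by the spread within all 4 groups, including the length-related library: without GSK343+XL413 replicate 2 it was 0.035, and COL27A1 rose by 0.25 on the log2 scale with an adjusted p of 0.00109. COL16A1 also rose in that fit, by 0.24, with an edgeR adjusted p of 0.0453, so that 2 collagens were called there, against 4.85% of all genes. COL9A2 had 4.7, 4.62 and 4.73 CPM with XL413 and 3.85, 3.14 and 4.1 CPM with DMSO. The gene's XL413 libraries were above all DMSO libraries, with a log2 fold change of 0.34 ± 0.11 and an edgeR adjusted p of 0.173.

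**Figure D2:**
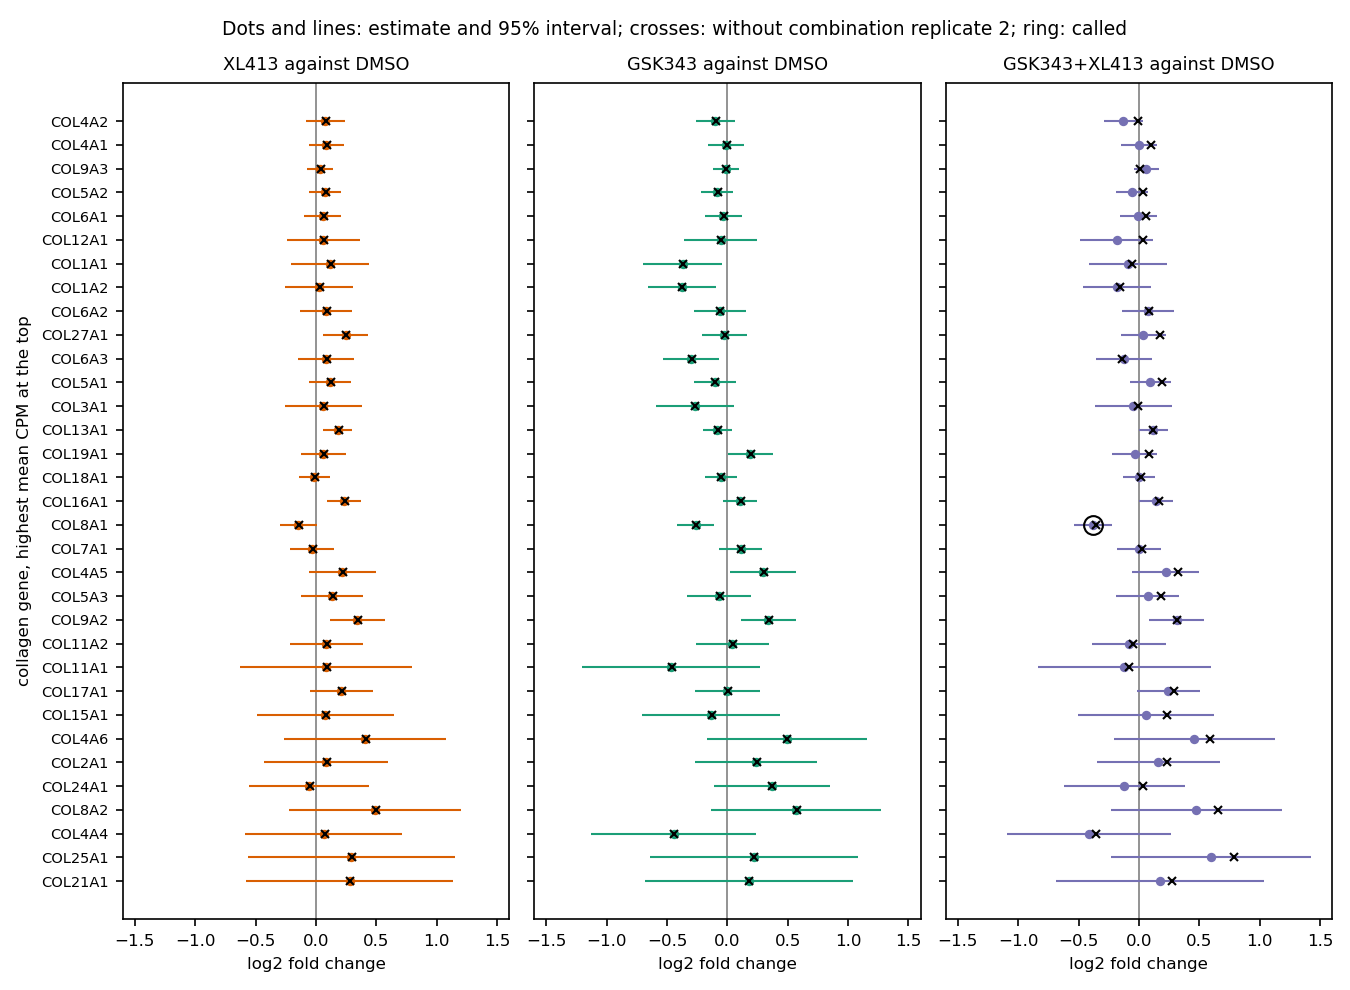
Log2 fold change (dots) with 95% interval (lines) of the 33 tested collagen genes against DMSO, for XL413, GSK343 and GSK343+XL413, ordered by mean CPM; crosses show the estimate without GSK343+XL413 replicate 2 and the ring marks a gene with adjusted p under 0.05. Only COL8A1 with GSK343+XL413 is ringed, at -0.38.

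For the highest collagens the intervals bound any change closely. Of the 18 collagens with a mean of at least 10 CPM, all 18 had a 95% interval within 1.5-fold of no change for XL413, 15 for GSK343 and 18 for GSK343+XL413, each against DMSO. COL4A2, for instance, had 525.9, 505.3 and 506.8 CPM with XL413 and 474.8, 491.3 and 490 CPM with DMSO, a log2 fold change of 0.08 with an interval from -0.083 to 0.241. COL9A3, with 199.9, 196.3 and 193.1 CPM with XL413 and 191.6, 189.8 and 194.4 CPM with DMSO, overlapped between the groups, and its interval ran from -0.071 to 0.138. The less abundant members were looser, and COL25A1, at 0.385 to 0.563 CPM with XL413 and 0.181 to 0.485 CPM with DMSO, had an interval from -0.566 to 1.152.

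Inhibition of EZH2 was addressed by GSK343 against DMSO. Again 0 of 33 collagens passed in the edgeR quasi-likelihood test, where 1.17% of all tested genes passed, and DESeq2 and limma-voom called 0. At an unadjusted p under 0.05 there were 3 collagens higher and 4 lower, against 6.95% and 7.3% of all genes. The median log2 fold change of the collagens was -0.0338, beside 0.00108 over all tested genes. The groups did not overlap for 4 higher and 3 lower collagens, against 11.2% and 14.0% of all genes.

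The smallest p belonged to COL8A1, a short-chain collagen of vessel walls and the cornea's Descemet membrane. COL8A1 had 10.3, 11.7 and 11.9 CPM in GSK343 libraries and 13.1, 14.1 and 13.6 CPM in DMSO libraries. All GSK343 libraries were lower, with a log2 fold change of -0.26 ± 0.072 and an adjusted p of 0.102 in edgeR. Without GSK343+XL413 replicate 2, which is in neither group but enters the shared spread, COL8A1 fell by 0.26 with an adjusted p of 0.0443. In that fit COL4A2 also fell, by 0.1 on the log2 scale (adjusted p 0.0437), and COL19A1 rose, by 0.19 (adjusted p 0.0409), so that 3 collagens were called, against 6.15% of all genes. COL9A2 had 4.78, 4.86 and 4.4 CPM with GSK343 and 3.85, 3.14 and 4.1 CPM with DMSO, above all DMSO libraries, with a log2 fold change of 0.34 ± 0.11 and an edgeR adjusted p of 0.152.

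Type I collagen was lower in some GSK343 libraries only. COL1A1 had 92, 52.6 and 72.1 CPM with GSK343 and 81.4, 103.5 and 95.1 CPM with DMSO. GSK343 replicates 2 and 3 lay below every DMSO library, replicate 2 the lowest, while replicate 1 lay within the DMSO range. The log2 fold change was -0.37 ± 0.15, at an edgeR adjusted p of 0.275, and was -0.18 without GSK343 replicate 2. COL1A2 followed, with 81.9, 55.6 and 66.6 CPM with GSK343 and 75.9, 102.5 and 86.5 CPM with DMSO, a log2 fold change of -0.38 ± 0.13 and an edgeR adjusted p of 0.2, and -0.25 without that library. COL6A3 had 48.4, 41.6 and 47.9 CPM with GSK343 and 54.9, 67.7 and 47.3 CPM with DMSO, and its groups overlapped, with a log2 fold change of -0.3 ± 0.11 and an edgeR adjusted p of 0.215.

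How the compounds together compare with the solvent was read from GSK343+XL413 against DMSO. This comparison called 1 collagen of 33, COL8A1, which fell, while 13.9% of all tested genes were called, and 7.25% of all tested genes were lower. DESeq2 and limma-voom likewise called 1. At an unadjusted p under 0.05 there were 4 collagens, 3 higher and 1 lower, against 30.4% of all genes, 14.9% higher and 15.5% lower. The median log2 fold change of the collagens was 0.00154, beside 0.00601 over all tested genes, and 17 estimates lay above 0 and 16 below. Groups did not overlap for 3 higher collagens and 1 lower, against 16.3% and 17.4% of all genes.

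COL8A1, on chromosome 3 at 99638475 to 99799226, had 10.1, 10.1 and 11 CPM in GSK343+XL413 libraries and 13.1, 14.1 and 13.6 CPM in DMSO libraries. All 3 treated libraries were below all 3 DMSO libraries. The log2 fold change was -0.38 ± 0.072, with an interval from -0.535 to -0.225 and an adjusted p of 0.00562 in edgeR's quasi-likelihood test. The call held in 21 of 22 alternative fits, and the exception was a test against a minimum of 1.2-fold, over an adjusted p range of 0.000847 to 0.65. COL8A1 had the lowest mean of the 18 collagens with at least 10 CPM, and 327 to 474 counts per library. With XL413 it had 11.7, 12.3 and 12.8 CPM, and it was lower than every DMSO library there also, at a log2 fold change of -0.15 and an edgeR adjusted p of 0.392. All comparisons against DMSO use the same 3 DMSO libraries.

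**Figure D3:**
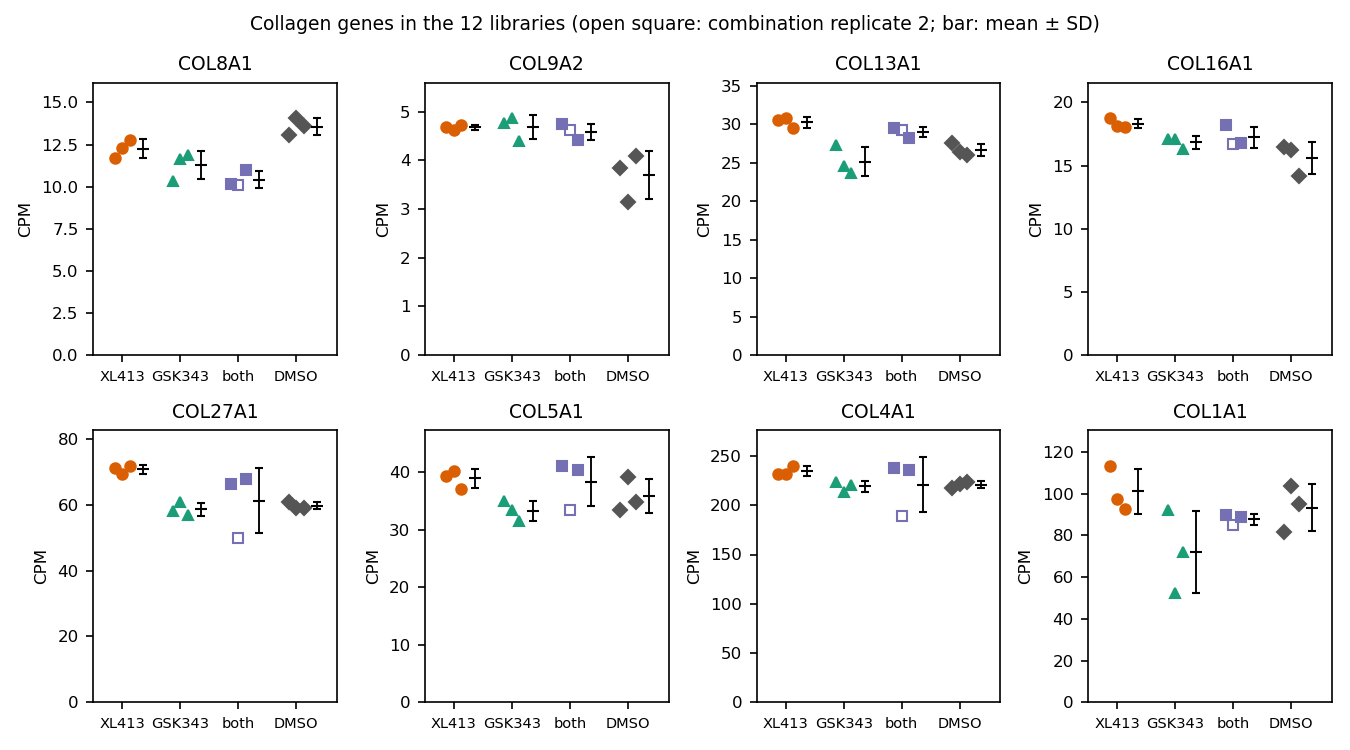
CPM of 8 collagen genes in the 12 libraries, with XL413, GSK343, GSK343+XL413 (both) and DMSO from left to right; filled points are libraries, the open square is GSK343+XL413 replicate 2, and bars are mean ± SD of 3. COL8A1 lies below the DMSO libraries in every treated library, while the open square is the lowest library of COL27A1 and COL4A1.

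COL9A2 had 4.74, 4.62 and 4.41 CPM with GSK343+XL413 and 3.85, 3.14 and 4.1 CPM with DMSO, all treated libraries above all DMSO libraries. Its log2 fold change was 0.31 ± 0.11, with an edgeR adjusted p of 0.0647. COL16A1 had a log2 fold change of 0.14 ± 0.065 and COL13A1 one of 0.12 ± 0.056, with edgeR adjusted p of 0.16 and 0.163. COL27A1 had 66.1, 49.8 and 67.7 CPM with GSK343+XL413 and 60.8, 59.1 and 59 CPM with DMSO. Replicate 2 was below the DMSO libraries and the other two above them. COL4A1 showed the same split, with 237.9, 188.6 and 235.4 CPM with GSK343+XL413 and 217.3, 221.8 and 223.5 CPM with DMSO, a log2 fold change of -0.002 that turned to 0.104 without replicate 2. Without it, COL27A1 rose by 0.17 (adjusted p 0.00945) and COL4A1 by 0.1 (adjusted p 0.0416), and COL8A1 fell by 0.35 (adjusted p 0.00934), so that 3 collagens were called, against 15% of all genes.

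What each compound added to the other was read from the combination against the single compounds. Against XL413, 0 of 33 collagens passed in edgeR, against 0.784% of all tested genes, and DESeq2 and limma-voom called 0. At an unadjusted p under 0.05 there were 3 collagens, all lower in GSK343+XL413, with 0 higher, against 7.52% and 7.48% of all genes. Of the 33 estimates 25 lay below 0, with a median log2 fold change of -0.064, beside 0.00706 over all tested genes, and without GSK343+XL413 replicate 2 the collagen median was -0.0152 and 0 collagens were called, against 1.62% of all genes. The groups did not overlap for 7 lower and 0 higher collagens, against 9.84% and 10.0% of all genes. The smallest p values were those of COL8A1, at -0.24 ± 0.072 (adjusted p 0.169), and COL4A2, at -0.21 ± 0.075 (adjusted p 0.225). COL4A2 had 478.3, 370.6 and 483.2 CPM with GSK343+XL413 and 525.9, 505.3 and 506.8 CPM with XL413, and its estimate was -0.1 without replicate 2.

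Against GSK343, 0 of 33 collagens passed in edgeR, against 0.984% of all tested genes, and DESeq2 and limma-voom called 0. At an unadjusted p under 0.05 there were 2 collagens higher and 2 lower, against 10.5% and 9.93% of all genes, or 20.4% in either direction. COL13A1 had 29.5, 29.3 and 28.3 CPM with GSK343+XL413 and 27.3, 24.6 and 23.7 CPM with GSK343, without overlap, a log2 fold change of 0.21 ± 0.056 and an edgeR adjusted p of 0.0877. COL19A1, a fibril-associated collagen of basement membrane zones, had 22.4, 17 and 21.8 CPM with GSK343+XL413 and 23.3, 23.3 and 24.9 CPM with GSK343. All libraries of the combination were lower than all GSK343 libraries, with a log2 fold change of -0.22 ± 0.086 and an edgeR adjusted p of 0.179, and -0.11 (adjusted p 0.39) without replicate 2. COL5A1, a chain of type V, had 41.1, 33.4 and 40.5 CPM with GSK343+XL413 and 35, 33.4 and 31.5 CPM with GSK343, which overlapped through replicate 2. The log2 fold change was 0.2 ± 0.08, with an edgeR adjusted p of 0.19. Without that library COL5A1 rose by 0.29 (adjusted p 0.0291) and COL27A1 by 0.19 (adjusted p 0.0221), so that 2 collagens were called, against 1.56% of all genes. COL13A1 was called when GSK343 replicate 1 was left out, and in no other fit that left out a library. COL8A1, lower with the combination than with DMSO, had an estimate of -0.12 against GSK343, with an interval from -0.273 to 0.04.

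Whether the compounds acted on collagens other than by adding up was read from the interaction, the GSK343 effect with XL413 minus that without it. It called 0 of 33 collagens and 0.0% of all tested genes in edgeR, 2.67% at an unadjusted p under 0.05. DESeq2 and limma-voom called 0 collagens. The 2 collagens under that p were COL9A2, at -0.37 ± 0.15, and COL19A1, at -0.29 ± 0.12, both with an edgeR adjusted p of 0.989. For COL8A1 the estimate was 0.03 ± 0.1, with an interval from -0.19 to 0.249.

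Collagen mRNAs are long, and the libraries differed in how levels went with transcript length. The tested collagens had a median longest transcript of 6425 nt, beside 3310 nt for all tested genes, and 26 of 33 reached 5000 nt. How far GSK343+XL413 replicate 2 lay from the mean of its 2 fellow libraries went down with transcript length, with a Spearman rho of -0.61 across 13072 genes and -0.372 across 29 collagens, as a description, since genes share the library. The other 11 libraries had a rho of -0.415 (GSK343 replicate 1) to 0.532 (GSK343+XL413 replicate 3) across the same genes, with an SD of the deviation of 0.134 to 0.178, beside 0.26 in GSK343+XL413 replicate 2. Replicates 1 and 3 of GSK343+XL413 (rho 0.457 and 0.532) are themselves measured against a mean that includes replicate 2. Outside that group the highest rho was 0.49 and the highest SD 0.163, both in GSK343 replicate 3. The median log2 deviation of GSK343+XL413 replicate 2 was -0.199 over the 24 long collagens and 0.0119 over the 5 shorter ones. The largest deviations were those of COL12A1, at -0.761 and 11723 nt, and COL27A1, at -0.422 and 7790 nt. COL12A1 had 117.6, 67.7 and 112.6 CPM with GSK343+XL413 and 110.1, 114.5 and 113.3 CPM with DMSO, so the 1 low library carried the difference. Length alone did not order them, since COL6A3, at 10749 nt, deviated by 0.06 and COL9A3, at 2497 nt, by 0.17. The calls made without this library were all among the long collagens, 2, 3 and 3 in the comparisons against DMSO, with 0 among the 7 shorter ones. With an offset for length and GC content per gene, 3, 1 and 7 collagens were called for XL413, GSK343 and GSK343+XL413 against DMSO, against 3.48%, 3.41% and 17.7% of all genes. Of these collagens 3, 0 and 6 were higher and 0, 1 and 1 lower, COL8A1 being the lower one in both cases. The 7 shorter collagens gave 1, 0 and 3 of the higher calls. That offset gave 0 collagens for the combination against XL413 and 3, all higher, against GSK343, where 2.11% and 4.11% of all genes were called.

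**Figure D4:**
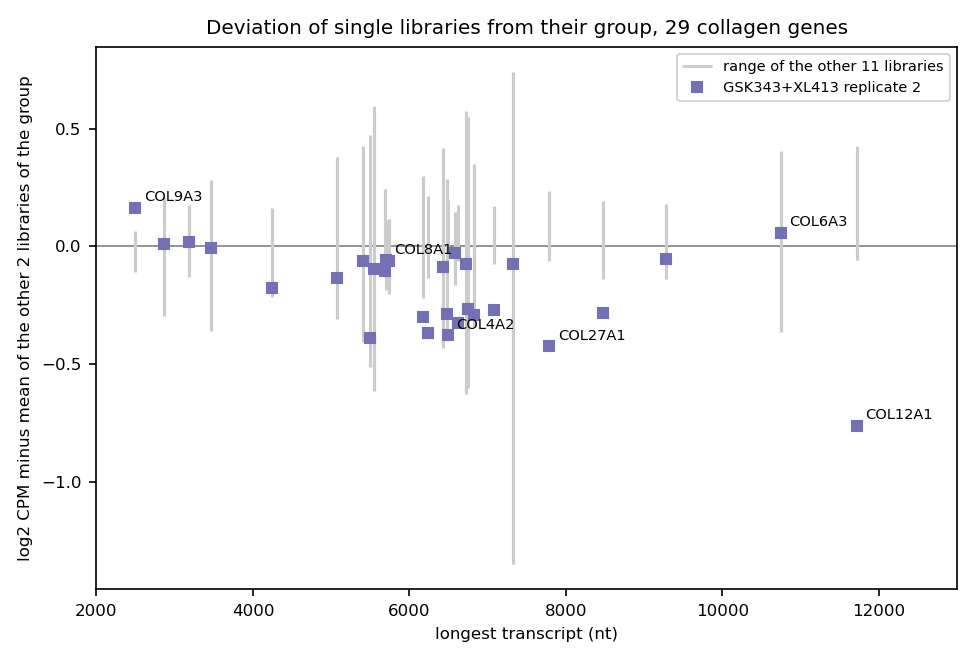
Deviation of log2 CPM of GSK343+XL413 replicate 2 (squares) from the mean of the other 2 libraries of its group, against the longest transcript in nt, for 29 collagens. Grey lines span the same deviation in the other 11 libraries, of which the 2 in its group are measured against a mean that includes it. Most long collagens lie below 0 in that library, with COL12A1 at -0.761, while COL9A3 lies at 0.165.

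Levels of partner chain genes mostly varied together from library to library, though for several pairs r fell when 2 libraries were left out. For COL1A1 and COL1A2, Pearson's r of log2 CPM was 0.963 and Spearman's rho 0.972 over 12 libraries, each at a permutation p of 1e-05, the smallest that 100000 permutations can give, and 9e-05 after adjustment over 9 pairs. Without the 2 libraries farthest from the median, GSK343 replicates 2 and 3, r was 0.941, and after centring on group means 0.951. COL3A1, which forms mixed fibrils with type I, correlated with COL1A1 at r = 0.93 (permutation p 0.00022, adjusted 0.00066) and rho = 0.783 (permutation p 0.00376, adjusted 0.00745), but r was 0.618 without those 2 libraries. COL4A1 and COL4A2 correlated at r = 0.876 (permutation p 0.00241, adjusted 0.00497) and rho = 0.664 (permutation p 0.0224, adjusted 0.0288), and at 0.533 without XL413 replicate 3 and GSK343+XL413 replicate 2. COL6A1 and COL6A2 gave r = 0.826 (permutation p 0.00276, adjusted 0.00497) and rho = 0.776 (permutation p 0.00413, adjusted 0.00745). Their r was 0.392 without GSK343 replicate 2 and DMSO replicate 3. Without GSK343+XL413 replicate 2 alone, r was 0.978 for COL6A1 and COL6A2 and 0.597 for COL4A1 and COL4A2. How strong these 2 relations were thus depended on which libraries were kept. COL6A3 gave r = 0.675 with COL6A1 and 0.686 with COL6A2. Without GSK343 replicate 2 and DMSO replicate 3 these were 0.407 and 0.387. COL1A2 and COL3A1 gave r = 0.879, and 0.684 without GSK343 replicate 2 and DMSO replicate 2. For COL5A1 and COL5A2 r was 0.681, and 0.737 without GSK343 replicate 3 and GSK343+XL413 replicate 1. COL9A2 and COL9A3 gave r = 0.309 (permutation p 0.255, adjusted 0.255) and rho = 0.476 (permutation p 0.123, adjusted 0.123), and r = 0.253 without DMSO replicates 1 and 2.

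**Figure D5:**
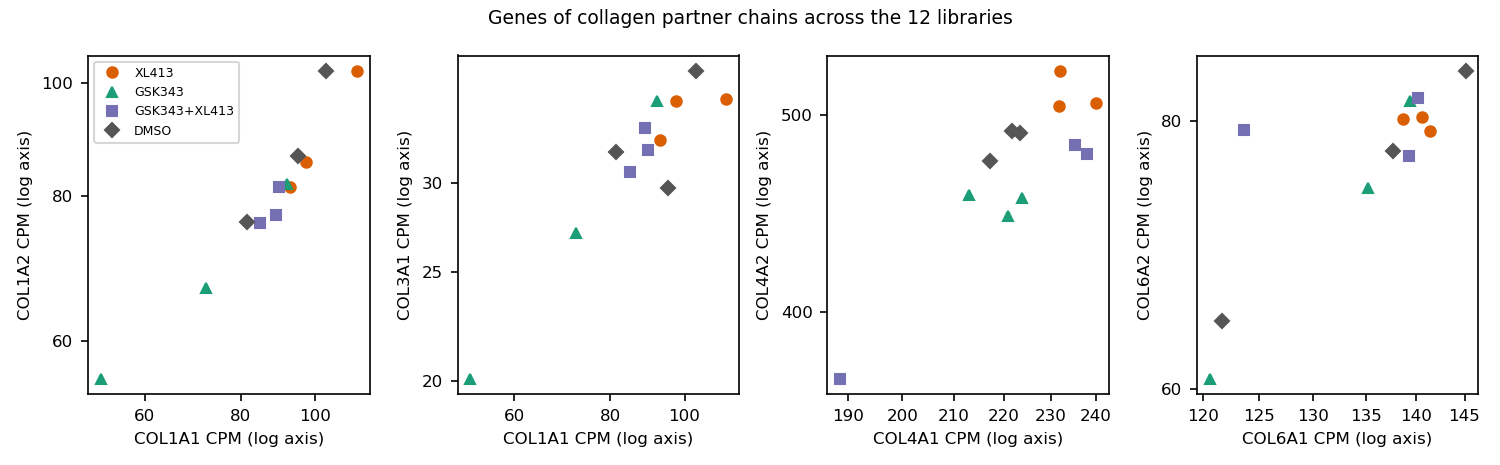
CPM of partner chain genes in the 12 libraries on log axes, by group; the pairs are COL1A1 with COL1A2, COL1A1 with COL3A1, COL4A1 with COL4A2 and COL6A1 with COL6A2. GSK343 replicate 2, at 52.6 CPM of COL1A1, is the lowest library of the type I and III genes, and GSK343+XL413 replicate 2 is the lowest of the type IV pair.

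Type I and III genes varied more between replicates than genes of like level. Within groups, the SD of log2 CPM was 0.232 for COL1A1, 0.198 for COL1A2 and 0.224 for COL3A1, in the 98.8, 97.8 and 98.4 percentile of genes with comparable CPM. COL12A1 stood at 98.7 through GSK343+XL413 replicate 2. Other collagens also stood high, with COL11A1 at 98, COL6A3 at 94.8 and COL6A2 at 93.6. COL8A1 stood at 22.2, COL9A2 at 14.3 and COL13A1 at 26.2.

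Genes that act on collagen outside and inside the cell were followed alongside. Their lists were chosen with earlier results of these data known, so counts within a list only describe it. In GSK343+XL413 against DMSO, 4 of 9 tested collagen-degrading protease genes rose and 0 fell, with a median log2 fold change of 0.278, beside 0.00601 over all tested genes, where 6.69% rose. Without GSK343+XL413 replicate 2 that median was 0.206, beside 0.0104 over all tested genes. MMP1, the interstitial collagenase that cuts type I fibrils, had 22.2, 22.2 and 23 CPM with GSK343+XL413 and 12.3, 11.8 and 13.1 CPM with DMSO. It rose by 0.86 ± 0.066 (edgeR adjusted p 3.08e-05), with no overlap, and the call held in all 12 fits that each left out 1 library. MMP1 had 15.5, 16.7 and 16.5 CPM with XL413 and 14.8, 17.2 and 15.6 CPM with GSK343. It rose in both against DMSO, by 0.39 and 0.36 (edgeR adjusted p 0.0233 and 0.0229). The XL413 call was lost without any 1 XL413 or DMSO library, and the GSK343 call without GSK343 replicate 2 or 3 or any 1 DMSO library. With the combination MMP1 was higher than with XL413 by 0.47 and than with GSK343 by 0.5 (edgeR adjusted p 0.00329 and 0.00333), where 0.557% and 0.648% of all genes rose. MMP13, a collagenase of low level here, had 1.24, 1.3 and 1.43 CPM with GSK343+XL413 and 0.606, 0.593 and 0.632 CPM with DMSO, and rose by 1.11 ± 0.2 (edgeR adjusted p 0.00421). MMP2, which digests gelatin and type IV, had 197.6, 199.8 and 203.9 CPM with GSK343+XL413 and 172.7, 175.6 and 178.3 CPM with DMSO. All treated libraries were above all DMSO libraries, and it rose by 0.19 (edgeR adjusted p 0.00894). MMP2 also rose with XL413 against DMSO, by 0.24 (edgeR adjusted p 0.0204), a call lost without XL413 replicate 1 or 2 or any 1 DMSO library. CTSL, a lysosomal protease, rose by 0.24 (edgeR adjusted p 0.00837). MMP14, the membrane-bound activator of MMP2, overlapped, with 123.3 to 129.2 CPM with GSK343+XL413 and 125.9 to 132.3 CPM with DMSO. For the combination against GSK343, 2 of 9 protease genes were called, MMP1 and MMP2, both higher, beside 0.648% of all genes.

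Among processing and cross-linking genes, 2 of 16 rose and 3 fell with GSK343+XL413 against DMSO, against 6.69% and 7.25% of all genes. With GSK343 0 rose and 2 fell, against 0.725% and 0.44% of all genes. TGM2, a transglutaminase, had 571.3, 493.5 and 571.3 CPM with GSK343+XL413 and 664.1, 665.3 and 655.5 CPM with DMSO, and fell by 0.28 ± 0.049 (edgeR adjusted p 0.00411). It also fell with GSK343, by 0.25 (edgeR adjusted p 0.0277). For the combination against XL413, 0 of 16 genes were called higher and 2 lower, TGM2 and LOXL3, beside 0.557% and 0.227% of all genes. LOXL3, a lysyl oxidase family member, had 137.4, 132 and 134.2 CPM with GSK343+XL413 and 161.2, 161.5 and 159.1 CPM with XL413. The groups were well apart, and it fell by 0.26 ± 0.034 (edgeR adjusted p 0.00264). LOXL3 fell against DMSO as well, with GSK343 by 0.18 (edgeR adjusted p 0.0248) and with GSK343+XL413 by 0.12 (edgeR adjusted p 0.0391). The GSK343 calls of TGM2 and LOXL3 each held in 4 of 12 fits that left out a library, being lost without any 1 GSK343 or DMSO library or XL413 replicate 1 or 2. The LOXL3 call of the combination against DMSO also held in 4, being lost without any 1 XL413 or DMSO library, GSK343 replicate 1 or GSK343+XL413 replicate 3. FURIN, a proprotein convertase, fell by 0.25 in GSK343+XL413 against DMSO (edgeR adjusted p 0.00204). The rises of LOXL1, a lysyl oxidase family member, by 0.47 (edgeR adjusted p 0.0438), and of PCOLCE2, which enhances procollagen trimming, by 0.22 (edgeR adjusted p 0.0419), held in 2 and 1 of those 12 fits. LOXL4, of the same family, was not called in that comparison, with 175.7 to 200.6 CPM with GSK343+XL413 and 174.5 to 187.2 CPM with DMSO. LOXL1 kept its call only without GSK343 replicate 1 or 2, and PCOLCE2 only without GSK343+XL413 replicate 3. For the combination against GSK343, 1 of 16 genes was called, FURIN, which was lower, beside 0.337% of all genes.

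Of 23 tested genes of hydroxylation, folding and export, 2 rose and 2 fell with GSK343+XL413 against DMSO, near the 6.69% and 7.25% of all genes that did. COLGALT1, which adds galactose to hydroxylysine, fell by 0.19 (edgeR adjusted p 0.00788). P4HB, the protein disulfide isomerase subunit of prolyl hydroxylase, had 596.6, 603.4 and 599.5 CPM with GSK343+XL413 and 661.6, 653.7 and 647.7 CPM with DMSO. It fell by 0.13 (edgeR adjusted p 0.0201), a call lost without DMSO replicate 1 or 2. CRTAP, of the prolyl hydroxylation complex, rose by 0.16 (edgeR adjusted p 0.0233), a call lost without GSK343+XL413 replicate 1 or DMSO replicate 1 or 2. PLOD2, a lysyl hydroxylase, rose by 0.14 (edgeR adjusted p 0.0463), and kept that call only without GSK343 replicate 3 or GSK343+XL413 replicate 2. PLOD1, another lysyl hydroxylase, had 206.1, 191.8 and 204.6 CPM with GSK343+XL413 and 232.6, 228 and 231.6 CPM with XL413. It was lower by 0.2 with the combination than with XL413 (edgeR adjusted p 0.031), where 0.227% of all genes were lower. That call was lost without any 1 XL413 library, GSK343 replicate 1 or DMSO replicate 1. DMSO libraries had 213.4, 215.1 and 202.7 CPM of PLOD1, which overlapped the combination and lay below XL413. PPIB, a prolyl isomerase of collagen folding, overlapped, with 403.9, 466.6 and 407.4 CPM with GSK343+XL413 and 415.7, 389.9 and 389.4 CPM with DMSO. For the combination against GSK343, 1 of 23 genes was called, CRTAP, which was higher, beside 0.648% of all genes.

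Of 9 tested receptor genes 0 rose and 1 fell with GSK343+XL413 against DMSO, against 6.69% and 7.25% of all genes. Without GSK343+XL413 replicate 2 the count was 3 higher and 1 lower, against 15% of all genes called in either direction. With the offset for length and GC content it was 1 higher and 0 lower, against 17.7% of all genes in either direction. The gene that fell was DDR1, a collagen-binding kinase, by 0.21 (edgeR adjusted p 0.0219), a call lost without any 1 DMSO library. ITGB1, the shared chain of collagen-binding integrins, overlapped, with 524.3 to 579.8 CPM with GSK343+XL413 and 519.6 to 533.1 CPM with DMSO. ADGRG1, an adhesion receptor that binds type III collagen, had 129.9 to 155 CPM with GSK343+XL413 and 138.9 to 144.4 CPM with DMSO. Of 14 matrix partner genes 2 rose and 0 fell in that comparison, against the same 6.69% and 7.25%. Without GSK343+XL413 replicate 2, 1 rose and 0 fell, against the 15% of all genes called in either direction in that fit. TGFBI, which binds collagen and integrins, had 285.5, 274.7 and 290.6 CPM with GSK343+XL413 and 223.2, 217.7 and 205.4 CPM with DMSO. It rose by 0.4 ± 0.042 (edgeR adjusted p 0.000195), in all 12 fits that left out a library. TGFBI rose with XL413, by 0.27 (edgeR adjusted p 0.0136), and with GSK343, by 0.22 (edgeR adjusted p 0.0229), too. The XL413 call was lost without replicate 2 or 3 of XL413 or of DMSO, and the GSK343 call without any 1 GSK343 or DMSO library. LUM, a small proteoglycan of fibrils, rose by 0.3 (edgeR adjusted p 0.0436), and each of the 12 libraries left out ended that call. SPARC, a collagen-binding glycoprotein, overlapped, with 1046 to 1059 CPM with GSK343+XL413 and 1057 to 1063 CPM with DMSO. THBS1, a matricellular glycoprotein, was called in none of the 6 comparisons, with 1056 to 1216 CPM with GSK343+XL413 and 1270 to 1310 CPM with DMSO. Of the 12 TGF-beta pathway genes tested, 0 were called in the 6 comparisons by edgeR. At an unadjusted p under 0.05, 4 were higher and 0 lower for GSK343 against DMSO, where 6.95% and 7.3% of all genes were. For the combination 1 was higher and 1 lower against DMSO (14.9% and 15.5% of all genes), 1 higher against XL413 (7.48%) and 3 lower against GSK343 (9.93%). SMAD3, a signal transducer of that pathway, had 96.3 to 108.4 CPM with GSK343+XL413 and 103.6 to 109.2 CPM with DMSO. CTGF, a target gene of it, had 89.2 to 101 CPM with GSK343+XL413 and 93.6 to 95.5 CPM with DMSO.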

How the data were processed

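The 12 libraries of A375 cells were grouped by the labels. The deposited values are RSEM expected counts (estimated reads per gene); per the submitters' processing notes Bowtie2 2.1.0, RSEM 1.2.15 and hg38 were used. The annotation used for counting is not given in the sources used here. Expected counts were rounded to whole numbers.

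In R 4.3.3, edgeR 4.0.16 filtered genes with filterByExpr (at least 10 counts, 15 in total, given 4 groups), scaled by TMM, and fitted 1 quasi-likelihood model to all 12 libraries (8 residual degrees of freedom). All tests had 2 sides, and a gene was called at a Benjamini-Hochberg adjusted p under 0.05 over every gene tested. SE is the log2 fold change over the root of F, and intervals are 95%. Collagens and related lists were chosen with earlier results of these data known. Named collagens are those called, those with a mean of at least 10 CPM, the highest of each class and the 2 with the smallest p of each comparison; of other lists, called genes and the 2 highest. Transcript lengths and positions came from GENCODE 29; 23872 genes matched by symbol, 713 by an older symbol and 1888 not at all. Correlations and deviations used log2(CPM + 0.5). DESeq2 1.42.0 and limma 3.58.1 served as alternatives, beside RLE and upper quartile scaling, no count filter or one of 5 CPM in 3 libraries, fits of only the groups compared, a replicate block, an offset for length and GC content, a minimum of 1.2-fold and leaving out each library. The fit was tested on simulated data.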

Additional observations from a re-analysis of the deposited data

How the results depend on the processing

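Collagens called in a comparison changed in number under few settings. In XL413 against DMSO the count was 0 in the main test, 4 when only the groups compared were fitted and 3 with an offset for length and GC content. In GSK343 against DMSO it was 1 with that offset, which was lower, and in GSK343+XL413 against GSK343 3, all higher. In GSK343+XL413 against DMSO the offset gave 7, with 6 higher and 1 lower. Upper quartile scaling gave 2 there and a minimum of 1.2-fold gave 0. Leaving out each library in turn gave 0 to 2, 0 to 3 and 1 to 3 collagens against DMSO for XL413, GSK343 and GSK343+XL413, 0 to 0 for the combination against XL413, 0 to 2 against GSK343 and 0 to 0 for the interaction. The highest counts came without GSK343+XL413 replicate 2, and leaving out GSK343 replicate 1 gave 1 in GSK343+XL413 against GSK343. Signs turned for estimates near 0. COL4A1 in GSK343+XL413 against DMSO was 0.031 under upper quartile scaling, 0.013 with the 5 CPM filter, 0.116 with the offset, 0.104 without GSK343+XL413 replicate 2 and 0.002 without DMSO replicate 3. Leaving out 1 library at a time, it ranged from -0.067 to 0.104. COL27A1 was -0.031 and -0.047 against DMSO, and -0.011 and -0.028 against GSK343, without GSK343+XL413 replicates 1 and 3, within ranges of -0.047 to 0.171 and -0.028 to 0.191. COL5A2 against GSK343 was -0.015 and -0.039 without the same libraries, within -0.039 to 0.114. The cause was not tested. The replicate numbers showed little sign of pairing the libraries. Of same-numbered pairs 2 of 18 had a correlation of deviations over 0.1, and 4 of 12 libraries correlated best with their own number. Differently numbered pairs also passed 0.1, with 0.141 for XL413 replicate 3 and DMSO replicate 1. With the replicate block 0, 0, 1, 0, 0 and 0 collagens were called in the 6 comparisons, and 46, 108, 2065, 96, 119 and 0 genes in all. Called genes over the whole table ranged, on leaving out 1 library, from 16 to 756 for XL413, 37 to 958 for GSK343 and 850 to 2610 for the combination against DMSO, where edgeR's own counts were 66, 180 and 2152. Fitting only the groups compared gave 1394, 422 and 657, and a 1.2-fold minimum 2, 8 and 42.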
